A study of Mus musculus with 9 samples.

Results

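The proto-oncogene Myc and its neighbour Pvt1, a long noncoding RNA gene, were followed by DNA copy number across 9 mouse mammary tumours. All array probes between 60 and 64 Mb of chromosome 15 were taken, 1082 of 963261 distinct probes, of which 14 lay in Myc (61.81 to 61.83 Mb) and 150 in Pvt1 (61.86 to 62.1 Mb). These gene positions are those of the mm9 build. The array files name no build of their own, so the probes were placed by the positions printed in the files. The genes and the region were chosen by their tumour to pool ratio in these same tumours, so their levels against the reference and against the rest of chromosome 15 are given as a description, and no test of them is read.

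Tumour DNA and pooled tail DNA of mice without tumours were hybridised together on 1 Agilent array per tumour, with tumour DNA in Cy5 and the pool in Cy3. The stated aim of the series was to find copy number changes shared by tumours lacking Rb and p53. All 9 tumours came from conditional mutant mice of mixed strain background carrying Rbf/f and p53f/f, and differed in how Cre was delivered: MMTV-Cre in 1 tumour labelled nulliparous, 1 labelled parous and 5 labelled transplant, and adenoviral Ad-CMVcre in 2 tumours labelled transplant. In the MMTV-Cre model the mouse mammary tumour virus promoter drives the recombinase, and in the Ad-Cre model an adenovirus carries it behind the CMV promoter. The labels call the tumours independent but do not give the donor of each transplant. No array of normal DNA and no exchange of the dyes was among the samples, so the spread of normal DNA was not measured.

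MYC is a transcription factor that pairs with MAX and drives growth and cell cycle genes. Its gene is among those most often gained or amplified in breast cancer. Pvt1 lies just beyond Myc, and the pair is commonly gained together. A high, narrow gain (an amplicon) and a small shift of a whole chromosome arm are different kinds of event, and an array ratio averages both over all cells of the sample, so that fewer altered cells and fewer copies per cell cannot be told apart.

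The signal medians of the arrays were alike, from 1068 to 1147 in the pool channel and from 1067 to 1157 in the tumour channel, and the noise of a single probe was 0.158 to 0.183 on the log2 scale. Of the labels, 1 stood apart. Over a run of 4 probes at chr11:69397121-69402566, in the area of Trp53, the tumour to pool ratio was 30.4% to 58.6% of that of the surrounding probes in 8 tumours. It was 96.7% in the array that bears the label of replicate 2 of the MMTV-Cre transplants, called "the library labelled MMTV-Cre transplant 2" throughout. This run was picked because it was low. For many results that rest on that library, the value without it is given as well. Several ranges over tumours and the mean of all MMTV-Cre tumours are given with it only.

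One tumour carried a high amplification of Myc and Pvt1, and the other 8 did not. The level of a gene here is the median log2 ratio of tumour over pool across its probes, with each array centred on its autosomal median. In the MMTV-Cre parous tumour Myc stood at 3.14, an 8.81-fold ratio, with an SD of 0.56 over its 14 probes. In the MMTV-Cre nulliparous tumour it stood at 0.29. The 5 MMTV-Cre transplants had Myc levels of 0.13, 0.43, 0.13, 0.05 and 0.22 in replicates 1 to 5, where 0.43 belongs to the library labelled MMTV-Cre transplant 2. The Ad-Cre transplants had 0.22 and 0.0028. The parous tumour was thus far above every other tumour. The ranges of the MMTV-Cre transplants and the Ad-Cre transplants overlapped. The nulliparous tumour lay within the range of the MMTV-Cre transplants and above both Ad-Cre transplants.

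Pvt1 followed the same order at its extremes. Its level was 3.47 in the parous tumour, an 11.1-fold ratio, with an SD of 0.26 over 150 probes. It was 0.34 in the nulliparous tumour. In the MMTV-Cre transplants it was 0.14, 0.49, 0.16, 0.07 and 0.22, and in the Ad-Cre transplants 0.23 and 0.02. Again the parous tumour stood alone, the library labelled MMTV-Cre transplant 2 came next, and Ad-Cre transplant 2 was lowest.

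**Figure D1:**
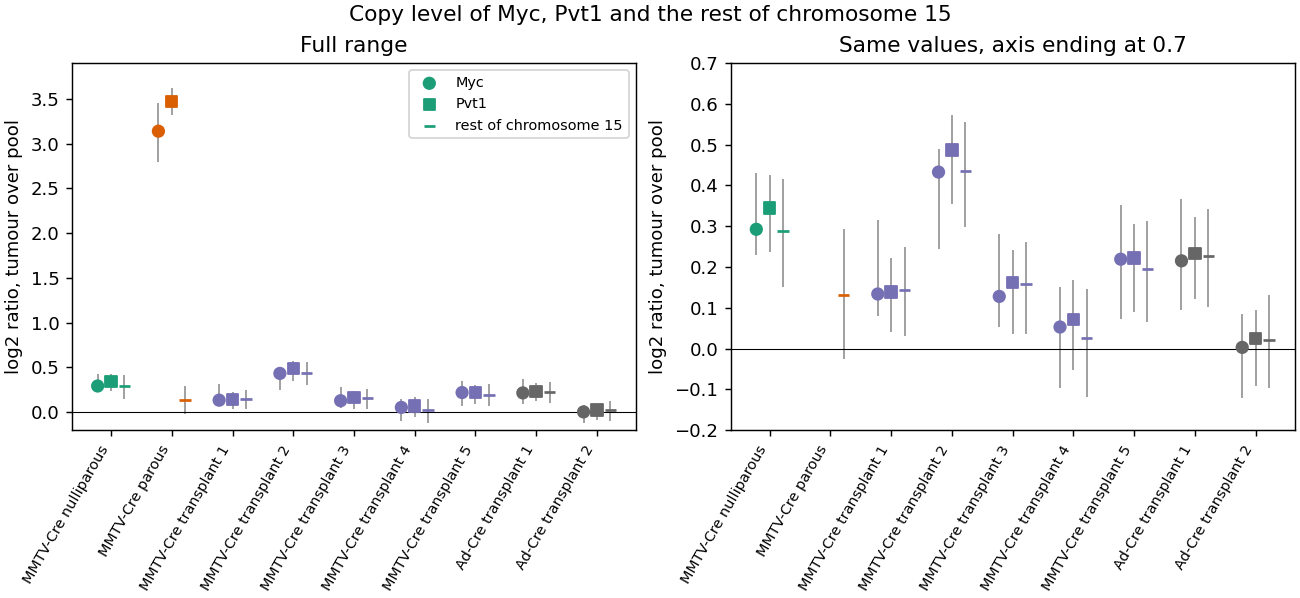
Median log2 ratio of tumour over pool for Myc (circles), Pvt1 (squares) and the rest of chromosome 15 (dashes) in each of the 9 tumours, coloured by group; grey lines span the quartiles over probes. The left panel shows the whole range, with Myc at 3.14 and Pvt1 at 3.47 in the parous tumour, and the right panel the same values on an axis that ends at 0.7 and leaves those 2 points out.

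The level over both genes together, the median of the 179 probes from the start of Myc to the end of Pvt1, ordered the tumours as follows. It was lowest in Ad-Cre transplant 2 at 0.01, then 0.06 in MMTV-Cre transplant 4, 0.14 in transplant 1, 0.15 in transplant 3 and 0.22 in transplant 5. Above these stood Ad-Cre transplant 1 at 0.23, the nulliparous tumour at 0.34, the library labelled MMTV-Cre transplant 2 at 0.48 and the parous tumour at 3.46. With 1 array per tumour there is no replicate spread, so each step in this order was set against the SD of 100 kb windows elsewhere on chromosome 15 in the noisier of the 2 neighbouring arrays. Of the 8 steps, 6 were smaller than that SD. The step from the nulliparous tumour to the library labelled MMTV-Cre transplant 2 (0.14 against an SD of 0.12) and the step to the parous tumour (2.98 against 0.30) were larger. Without that library the step to the parous tumour was the only one that was larger. The SD of windows includes copy changes along the chromosome and is not the error of a single level, which was not measured. The order also depended on the centring. With mode centring Ad-Cre transplant 1 stood at 0.09, below MMTV-Cre transplants 1, 3 and 5 at 0.11, 0.12 and 0.21.

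In the 8 tumours without the amplification, Myc and Pvt1 were at the level of the chromosome that carries them. The rest of chromosome 15 had a median log2 ratio of 0.29 (nulliparous) and 0.13 (parous) in the MMTV-Cre tumours that are no transplants, 0.14, 0.43, 0.16, 0.03 and 0.19 in the MMTV-Cre transplants and 0.23 and 0.02 in the Ad-Cre transplants. Subtracting it from the Myc-Pvt1 level left 0.05 in the nulliparous tumour, -0.01, 0.05, -0.01, 0.03 and 0.02 in the MMTV-Cre transplants and 0.0033 and -0.0092 in the Ad-Cre transplants. In these 8 tumours the remainder was smaller than the SD of 100 kb windows over the rest of chromosome 15, which ran from 0.058 to 0.12. Between 57.2% and 96.5% of those windows lay at least as far from the chromosome's median.

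In the parous tumour the remainder was 3.33, a 10.1-fold excess over the rest of its own chromosome 15, which is the value behind the choice of the region. A Myc-Pvt1 level above 0 was seen in 9 of 9 tumours. Of all 100 kb windows, 9.15% were above 0 in every tumour. The window over Myc was not among these, since it stood at -0.013 in Ad-Cre transplant 2. The Myc-Pvt1 level of Ad-Cre transplant 2 turned below 0 with loess (-0.0033), with mode centring (-0.016) and as a mean over probes (-0.020). The count of tumours above 0 comes from the contrast that chose the genes, and nothing is read from it.

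The amplified stretch in the parous tumour was read from a segmentation of the probes into runs of equal level. It covered chr15:61046355-62787015, or 1.74 Mb, and held 535 probes with a median of 3.18, a 9.06-fold ratio. Of these, 534 were at 1 or above. It began 764 kb before Myc and ended 687 kb after Pvt1, so both genes lay well inside it. The segments at 1 or above covered 0.368% of the windows of this tumour.

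Inside the stretch the copy level changed in 3 steps. The first, chr15:61046355-61827361, averaged 3.06 (8.35-fold, SD 0.38 over 210 probes) and held 13 of the 14 Myc probes. The second, chr15:61828668-62412421, averaged 3.46 (11.04-fold, SD 0.30 over 240 probes) and held the last Myc probe and all of Pvt1. The third, chr15:62416646-62787015, was lower at 2.23 (4.70-fold, SD 0.18 over 85 probes). The highest level thus covered Pvt1 and the ground beyond it. At this setting the boundary to the lower first step fell just inside the interval taken for Myc. In the other 8 tumours the medians over these same 3 stretches lay between -0.016 and 0.48. The highest was in the library labelled MMTV-Cre transplant 2. The place of the boundary at Myc depended on the setting. With the normexp background model the first step ended at chr15:61837930, beyond the interval taken for Myc. With single probes in place of bins it ended at chr15:61826004, within that interval. A lower segmentation penalty kept the boundary but gave 4 steps.

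Both ends of the stretch were sharp at the spacing of the probes. At the first end the 5 probes outside had a median of -0.03 and the 5 inside a median of 2.83. On each side 1 probe was out of place: 1.11 outside and -0.02 inside. With single probes in place of bins of 5 the stretch began at chr15:61054267, which left the probe at -0.02 outside. All 534 probes were then at 1 or above. At the last end the 5 probes inside lay between 2.11 and 2.43 and the 5 outside between -0.57 and 0.08. The parts of the region before and after the stretch stood at 0.11 and 0.02 in this tumour, against 0.13 for the rest of its chromosome 15. The probes were thinner here than in the genes, with a median spacing of 3888 bp before Myc and 3082 bp after Pvt1 against 1225 bp in Myc and 1486 bp in Pvt1.

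**Figure D2:**
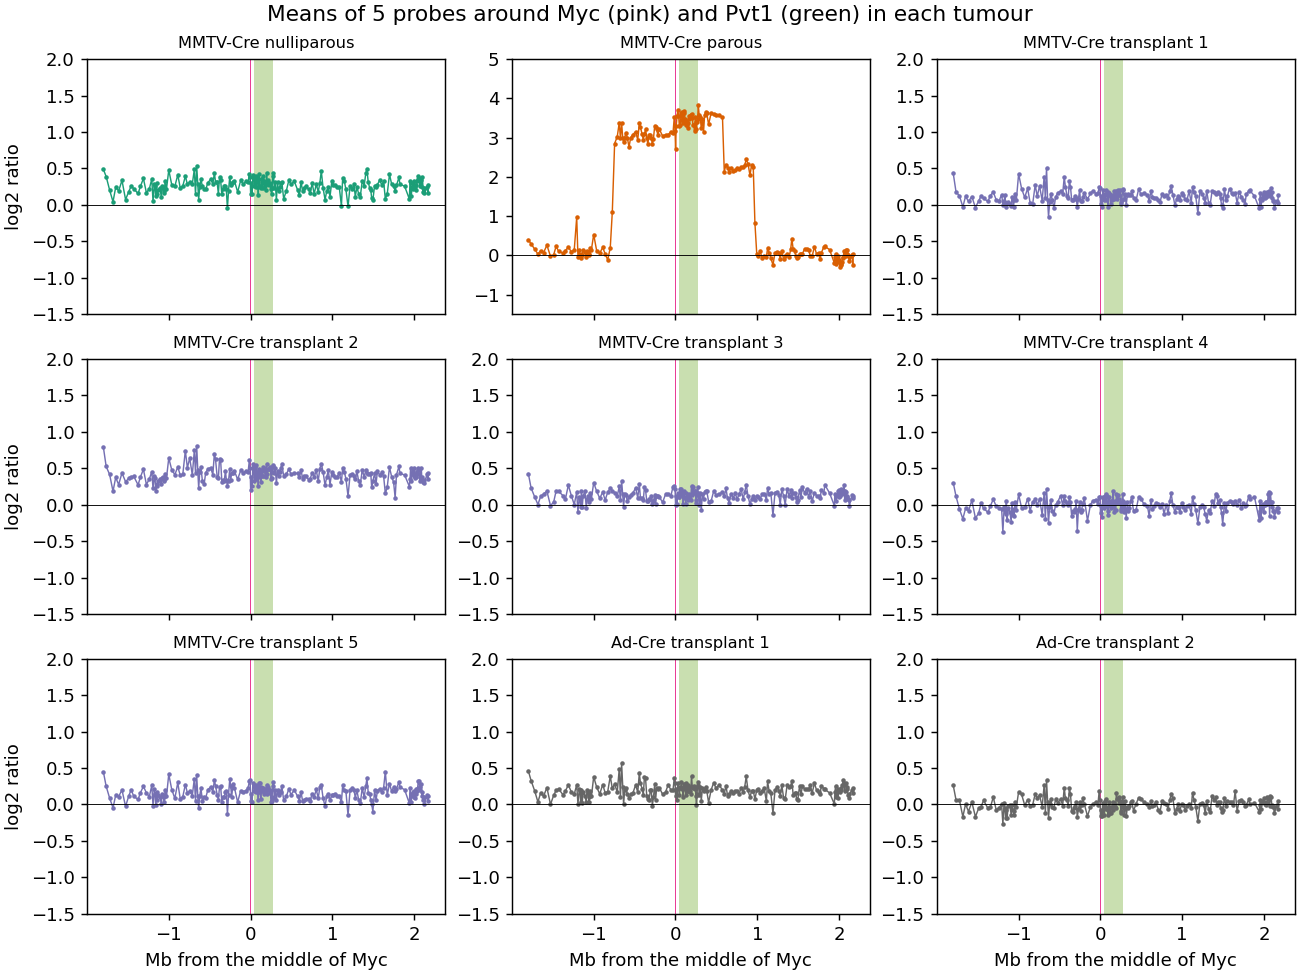
Log2 ratio of tumour over pool along the region, as means of 5 neighbouring probes (points joined by lines), against the distance in Mb from the middle of Myc, with 1 panel per tumour; the pink band is Myc and the green band Pvt1. The parous tumour (its axis reaches 5, the others 2) shows a plateau of 3 steps at 3.06, 3.46 and 2.23, and the other 8 panels show no step at either gene.

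The neighbours of the pair are named from the order of genes on chromosome 15 in the RefSeq table of GRCm38.p6. Its positions do not match those of the array, so which of them lie inside the stretch was not determined. Before Myc the nearest coding genes in order were A1bg, Lratd2 (listed earlier as Fam84b) and 4933412E24Rik, and then Trib1, a pseudokinase gene. After Myc came Pvt1 and then the gasdermin genes Gsdmc, Gsdmc2, Gsdmc3 and Gsdmc4, relatives of the pore-forming proteins of inflammatory cell death. Of 9 neighbours listed for the region, 8 were found in that table. Pou5f1b was not among them.

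Within Myc the probes of the parous tumour were uneven. The 4 probes at the low end of the gene's coordinates, chr15:61810603-61814693, read between 3.45 and 3.95. The next 2 read 2.62 and 2.71, and the lowest, at chr15:61819139-61819189, read 1.71, a 3.26-fold ratio. The last 7 read 3.17, 3.11, 3.08, 2.54, 3.08, 3.35 and 3.46. All 14 were thus far above 0, while the medians of the same probes over the other 8 tumours lay between -0.14 and 0.49.

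Myc read lower than Pvt1 in the amplified tumour by 0.33 on the log2 scale. The difference was below 0 in 9 of 9 tumours, from -0.054 to -0.0033 in the other 8, where it was far under the spread between probes. When each probe's median over the other 8 tumours was subtracted first, Myc in the parous tumour was at 3.07 (SD 0.47 over probes), Pvt1 was at 3.32 (SD 0.20), and the difference was -0.24.

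The excess came from the tumour channel. Over Myc the parous tumour's own signal was 9494, or 8.46 times its array median, while the pool read 1068, or 0.942 times. Over Pvt1 the tumour signal was 12325, or 10.98 times the array median, and the pool read 1107, or 0.976 times. In the other 8 arrays the tumour signal was 1.05 to 1.38 times the array median over Myc and 1.08 to 1.48 times over Pvt1, and the pool 0.971 to 1.05 and 1.06 to 1.12 times. The pool channel of the parous array was therefore the lowest of the 9 at both genes, by far less than the tumour channel was high. None of the region's spots was saturated (0 spots).

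**Figure D3:**
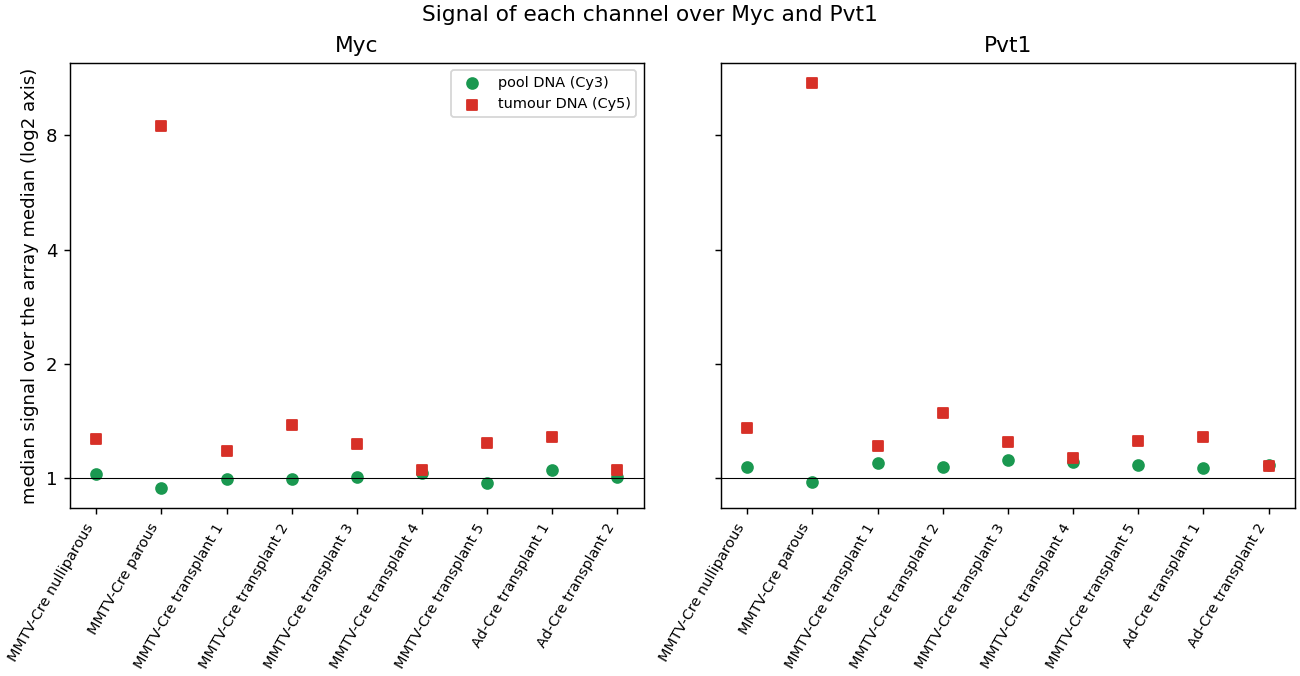
Median signal over the probes of Myc (left) and Pvt1 (right), divided by the median signal of the same channel of the array, on a log2 axis, for pool DNA (green circles) and tumour DNA (red squares) in each of the 9 arrays. Tumour DNA of the parous tumour reached 8.46 and 10.98 times its array median, and every other point lies between 0.942 and 1.48.

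The size of the ratio depended on how background was treated. The Myc-Pvt1 level of the parous tumour was 3.46, an 11.02-fold ratio, from the processed signals, and 3.47, an 11.1-fold ratio, from the raw spot medians less the local background. With the normexp background model it rose to 4.36, a 20.6-fold ratio. That model removed a further 426 units from the red and 465 from the green channel of this array, where the median net signals were 762 and 680. The stretch kept the same ends under this model, with a median of 4.07.

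In the other 8 tumours Myc lay in a broad segment of 9.12 to 59.5 Mb. Its mean was 0.26 for the nulliparous tumour and 0.41 for the library labelled MMTV-Cre transplant 2, both above the threshold of 0.25 used for a gain. In the remaining 6 it ran from -0.02 to 0.19. Counting the parous tumour, a gained segment covered Myc in 3 of 9 tumours, or 2 of 8 once the library labelled MMTV-Cre transplant 2 was left out. For these 3, gained segments covered 9.27% (nulliparous), 5.93% (parous) and 20.6% (the library labelled MMTV-Cre transplant 2) of all windows. In the other 6 tumours they covered 3.97%, 8.02%, 13% and 1.8% for MMTV-Cre transplants 1, 3, 4 and 5 and 8.47% and 0.766% for the Ad-Cre transplants. The nulliparous value is close to the threshold, and under a doubled segmentation penalty its segment averaged 0.24, which leaves 2 tumours.

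High copy levels elsewhere in the parous tumour were few. On chromosome 6, chr6:17144918-18092629 averaged 4.47 (22.2-fold) and chr6:18094236-21003351 averaged 4.24 (18.9-fold), both above the Myc-Pvt1 level of 3.46. On chromosome 15 itself, away from Myc, chr15:67375633-69235886 averaged 1.65 (3.15-fold) and chr15:100523407-101301819 averaged 1.94 (3.85-fold). A stretch of chromosome 13, chr13:12667935-13550841, averaged 1.097 over only 2 bins of 5 probes. Over all tumours chromosome 13 held 7 long segments at 1 or above. They lay in both Ad-Cre transplants, the nulliparous and parous tumours and MMTV-Cre transplants 1, 3 and 4. Segments shorter than a window of 100 kb were not listed. Of the 23354 windows, 43 stood above the window of Myc and 42 above that of Pvt1 in this tumour. Windows at 3 or above numbered 39 on chromosome 6 and 12 on chromosome 15.

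Whether the copy level of the pair differed between the models was compared over tumours, with exact two-sided permutation tests. The Ad-Cre tumours averaged 0.12 ± 0.15 (SD, n = 2) and the MMTV-Cre tumours 0.69 ± 1.23 (SD, n = 7) on the log2 scale. The difference was -0.57 (exact permutation p = 0.417, adjusted over 2 comparisons 0.417, smallest possible p = 0.0278). The parous tumour is in the MMTV-Cre arm and its high level was known when the genes were chosen. Nothing is therefore read from this p. Without the parous tumour the difference was -0.11, and without the library labelled MMTV-Cre transplant 2 it was -0.61. Within the scan day that held both models, 2 tumours of each, it was -1.78 (exact permutation p = 0.333, the smallest that this subset allows). With 2 Ad-Cre tumours, this does not show that the models are alike.

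Within MMTV-Cre, the 5 transplants averaged 0.21 ± 0.16 (SD, n = 5), or 0.14 ± 0.066 (SD, n = 4) without the library labelled MMTV-Cre transplant 2, and the other 2 tumours, nulliparous and parous, 1.90 ± 2.21 (SD, n = 2). The difference was -1.69 (exact permutation p = 0.0952, adjusted 0.190, smallest possible p = 0.0476). The parous tumour sits in 1 arm and its high level was known when the genes were chosen, so nothing is read from this p. The difference was -0.13 without the parous tumour and -3.25 without the nulliparous tumour. With the level of the rest of chromosome 15 subtracted in each tumour, the 5 transplants averaged 0.02 ± 0.02 (SD, n = 5), or 0.01 ± 0.02 (SD, n = 4) without the library labelled MMTV-Cre transplant 2, and the other 2 tumours 1.69 ± 2.32 (SD, n = 2). Of those 2, the nulliparous tumour stood at 0.0518, next to the highest transplant, the library labelled MMTV-Cre transplant 2, at 0.0467, a gap far under the SD of windows in either array. This subtracted level is the value by which the region was chosen, and no test of it is read. All nulliparous and parous arrays were scanned on 1 day and all MMTV-Cre transplants on the other 2, so that scan day and this comparison cannot be told apart.

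The same comparisons were run with limma over all 23354 windows of 100 kb. For Ad-Cre against MMTV-Cre, 0% of windows passed an adjusted p of 0.05 (limma, Benjamini-Hochberg; 601 had an unadjusted p under 0.05), and 0 of the 40 windows of the region did. For MMTV-Cre transplants against the other MMTV-Cre tumours it was also 0% (limma; 854 at an unadjusted p under 0.05), and again 0 of 40.

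Those counts changed with single tumours. On the 1 scan day that held both Ad-Cre and MMTV-Cre tumours, 2 of each, 150 windows passed, among them 17 adjacent windows of the region, chr15:61100001-62800000, all lower in Ad-Cre. The same 17 positions were lower in the transplants when the nulliparous tumour was left out, which leaves the parous tumour alone in its arm (83 windows in all, the lone tumour being assumed to vary like the transplants). In both fits these positions are those of the amplified stretch in the parous tumour. The high level of that tumour was known when the genes were chosen, so nothing is read from these calls. Within that scan day the exact permutation p for the Myc-Pvt1 level was 0.333. Without the parous tumour the transplant comparison had 22 windows past the threshold and 0 in the region, and without the library labelled MMTV-Cre transplant 2 it had 16, with 0 in the region.

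Against the pool, which is the contrast behind the choice of the genes, 18.6% of all windows were called higher over the 9 tumours (limma, adjusted p of 0.05) and 19 of the 40 windows of the region were. In either direction it was 33.2%. The count was 36 of 40 without the parous tumour and 10 of 40 with the exclusion of the library labelled MMTV-Cre transplant 2. Over the settings with 100 kb windows it ran from 7 (mode centring) to 40 (scan day as a random block), with 8 without the nulliparous tumour and 8 without Ad-Cre transplant 1. Nothing is read from these counts.

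Windows outside chromosome 15 whose level followed the Myc-Pvt1 level most closely over the 9 tumours were sought by Pearson correlation, taking at most 1 per 10 Mb. The closest was chr6:17200001-17300000 (r = 0.99, Spearman rho = 0.42), at 4.46 in the parous tumour and between -0.06 and 0.23 in the others. The next 4 were on chromosome 12, beginning at chr12:61100001-61200000 (r = 0.97), which stood at 0.33 in the parous tumour and below 0 in all 8 others. The median over the whole of chromosome 12 was 0.24 in the parous tumour. These values of r rest on the parous tumour and describe its own copy levels, not a relation across tumours.

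Without that tumour the 5 closest windows all lay on chromosome 5, with r of 0.99 over 8 tumours. The window chr5:90200001-90300000 stood at 0.28 in the nulliparous tumour, 0.12, 0.36, 0.14, 0.08 and 0.16 in the MMTV-Cre transplants and 0.17 and 0.05 in the Ad-Cre transplants. Without the library labelled MMTV-Cre transplant 2 as well, its r was 0.98 over 7 tumours. The order of the 8 tumours was the same as for Myc-Pvt1 (Spearman rho = 1). Both sets are the extremes of a search over all windows, the arrays share 1 pool DNA, and array centring moves all windows of a tumour together.

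**Figure D4:**
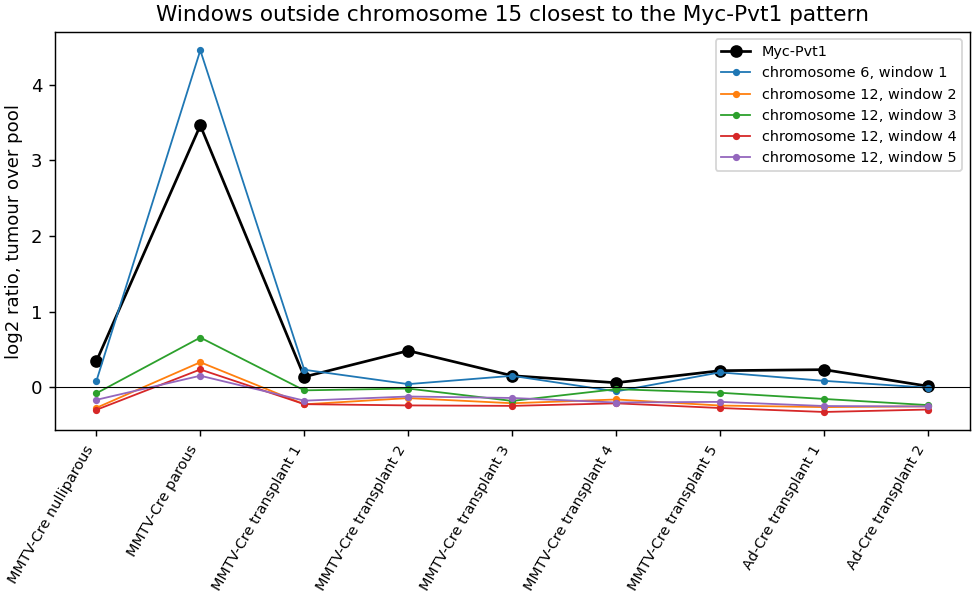
Log2 ratio of tumour over pool in the 9 tumours for Myc-Pvt1 (black) and for the 5 windows of 100 kb outside chromosome 15 with the highest Pearson correlation to it (coloured lines). The window on chromosome 6 reaches 4.46 in the parous tumour, above Myc-Pvt1 at 3.46, and the 4 windows on chromosome 12 rise there by less.

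The partners and relatives of MYC were looked at by chromosome, since the array names no genes, and all 13 listed genes were found in the RefSeq table. Chromosome 12, which carries Mycn, a MYC family member, and Max, the obligate partner, had medians between -0.24 and 0.24 and was above 0 in 1 of 9 tumours, the parous tumour. Chromosome 4, with Mycl, the third family member, ran from -0.04 to 0.19. Chromosome 5, with Mxd4, a MAX-binding repressor, and Mlxip and Mlxipl, of the parallel MLX branch, was above 0 in 9 of 9 tumours, from 0.01 to 0.40, the highest being the library labelled MMTV-Cre transplant 2.

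The chromosomes of the other repressors, and that of Mlx of the MLX branch, moved either way. Chromosome 6, with Mxd1, lay between -0.22 and 0.08, lowest in the parous tumour. Chromosome 19, with Mxi1, ran from -0.15 to 0.41, and only the library labelled MMTV-Cre transplant 2 reached 0.25. Chromosome 2, with Mga, was above 0 in 1 of 9 tumours and reached -0.39 at the lowest. Chromosome 11, with Mnt and Mlx, ran from -0.30 to 0.15, and chromosome 13, with Mxd3, from -0.06 to 0.21. These are chromosome medians, and no level of the genes themselves was measured here. Such a median does not show narrow high segments. Over all tumours, long segments at 1 or above numbered 12 on chromosome 4, 7 on chromosome 13 and 5 on chromosome 15. There were 3 on chromosome 11, 2 on chromosome 6, 1 on chromosome 12 and 0 on chromosomes 2, 5 and 19. Whether any of them covered a listed gene other than Myc was not determined.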

How the data were processed

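Per the file headers, image reading by the authors used Agilent Feature Extraction 10.5.1.1 on 2-colour arrays. The processed spot intensity, as deposited, has had background subtracted and dyes normalised, and the deposited series table holds log10 ratios of red over green, used as an alternative. The number of arrays limits the precision.

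For each probe the log2 ratio of processed tumour over pool signal was taken. Spots flagged as outliers or not well above background in the pool channel were left out (1597 to 2115 per array), and the autosomal median of every array was set to 0. Probes in bins of 5 were segmented by penalised least squares (PELT, penalty factor 10, at least 2 bins). Windows of 100 kb with at least 3 probes went into limma 3.58.1 (R 4.3.3), and group levels with exact permutation tests. On simulated data limma recovered 97% of shifts of 0.5 against the pool, 39% for Ad-Cre against MMTV-Cre and 29% for transplants against other MMTV-Cre, and segmentation recovered 100% of 20-probe stretches raised by 3 with 0 false segments.

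The genes, neighbours and MYC network lists and the rule naming like windows were chosen with earlier results of these data known. Named were Myc, Pvt1, the listed genes, segments of the region and the 5 windows most like Myc-Pvt1, with and without the highest tumour. Replicates follow deposit order, and p-values measure only the spread between these tumours. Alternatives were normexp, loess, mode centring, other filters, windows, thresholds and penalties, and leaving out tumours. The use of raw medians less background, the subtraction of probe medians, the r of like windows without a further tumour and the counts without the library labelled MMTV-Cre transplant 2 were added after seeing the data. Neither probe sequences nor the sequences of both genes were used here.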

Additional observations from a re-analysis of the deposited data

How the results depend on the processing

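The Myc-Pvt1 level of the parous tumour was 3.46, and 4.36 with normexp. The median over the whole region, most of it outside the stretch, was 0.61, and then 0 tumours rather than 1 reached a level of 1. Tumours at 0.25 or more numbered 3, 6 with normexp, and 1 with the rest of chromosome 15 or the local flanks subtracted. A gained segment covered Myc in 3 tumours, in 5 with normexp or a threshold of 0.15, and in 2 with a threshold of 0.4 or a penalty factor of 20. For transplants against other MMTV-Cre tumours, the difference was -1.67 after subtraction of the rest of chromosome 15 and -1.69 after that of the flanks, each at an unadjusted exact permutation p of 0.0476, the smallest possible. The region was chosen by such a subtracted level, so this p is not read as support. Leaving out 1 tumour gave -3.25 to -0.13 (exact permutation p from 0.0667 to 0.5) there and -0.68 to -0.11 (0.25 to 0.75) for Ad-Cre against MMTV-Cre, which was -1.78 (exact permutation p = 0.333) within 1 scan day. Without the library labelled MMTV-Cre transplant 2, tumours at 0.25 or more numbered 2 and at 1 or more 1. Windows called by limma for Ad-Cre against MMTV-Cre numbered 0, 150 within 1 scan day, 3 with scan day as a fixed block and 0 to 3 without 1 tumour. For transplants they numbered 0, 5 with no spot filter and 0 to 83 without 1 tumour. Against the pool 7750 were called, 12223 with scan day as a random block and 5682 to 7815 without 1 tumour. The cause of these changes was not tested. Of the summary results under other settings, 111 kept their direction and side of the threshold or stayed within the limits set, 16 moved, 2 came past the threshold and 0 reversed. These leave out the levels of the tumours other than the parous one, of which 67 stayed within the limits and 13 moved. Those 13 came with normexp or with the rest of chromosome 15 or the flanks subtracted. With normexp the nulliparous level went from 0.34 to 0.55 and that of Ad-Cre transplant 1 from 0.23 to 0.46.

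No paired analysis was possible because the labels carry no replicate numbers shared between groups. Mode centring moved Ad-Cre transplant 1 by 0.14 and the other arrays by at most 0.04. With 1 array per tumour, the error of a single level was not measured.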
